A study of Mus musculus with 3 samples.

Results

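Intermediate filaments are the third cytoskeletal system beside actin and microtubules, and the genes that build them divide sharply by cell type. The 10 genes described here are Vim, Nes, Des, Synm, Sync and Lmna, which are not keratins, and the keratin genes Krt7, Krt8, Krt18 and Krt19. They were taken as a named list, of 19938 genes measured in all. Each gene was read from the probe set whose platform annotation gives only its symbol, and each of the 10 had exactly 1 such probe set.

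The samples were 3 preparations labelled renal corpuscle, from adult wild-type male CD-1 mice of 7 to 9 weeks. A renal corpuscle is the glomerular tuft with its capsule, but the sample titles read whole glomerulus. How much of the capsule, and so of its parietal cells, was kept was not tested. CD-1 is an outbred stock. Each preparation pooled about 2 kidneys, which were digested with collagenase A and passed through filters of 100, 70 and 40 µm. There was 1 group, with no treatment and no other tissue to set it against, and no cells were sorted.

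Vimentin, desmin and nestin filaments are typical of cells of mesenchymal origin. The podocyte, an epithelial cell that wraps the glomerular capillary, is known for its vimentin and nestin, and the mesangial cell and the smooth muscle cell for desmin. Keratins are the filaments of epithelia. They form only as pairs of a type I chain (Krt18, Krt19 and others) with a type II chain (Krt7, Krt8 and others), and in kidney they are known from the collecting duct, the urothelium and the parietal cells of Bowman's capsule. Lamins line the inner nuclear membrane of nearly every cell.

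Of the 6 genes that are not keratins, 6 were detected above background. Of the 4 keratin genes 2 were detected, Krt7 clearly and Krt8 narrowly, while Krt18 and Krt19 lay below background on every array. Over all genes 58.9% were detected. Background was set on each array from 1210 probe sets of odorant and pheromone receptor genes, which kidney is not known to use broadly, as their 95th percentile, at 6.90, 6.96 and 6.92 log2 on replicates 1, 2 and 3, and detection was called in limma with Benjamini-Hochberg adjustment over all genes. The non-keratin members had a median of 2.22 log2 above background and the keratin members one of -0.0011, against 0.37 for all genes. Signals of different probe sets do not rank transcripts, so heights above background are read here as clear of background or near it, and medians of lists describe probe sets and were not tested against each other. In whole corpuscles, more cells of a type and more RNA per cell cannot be told apart.

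**Figure D1:**
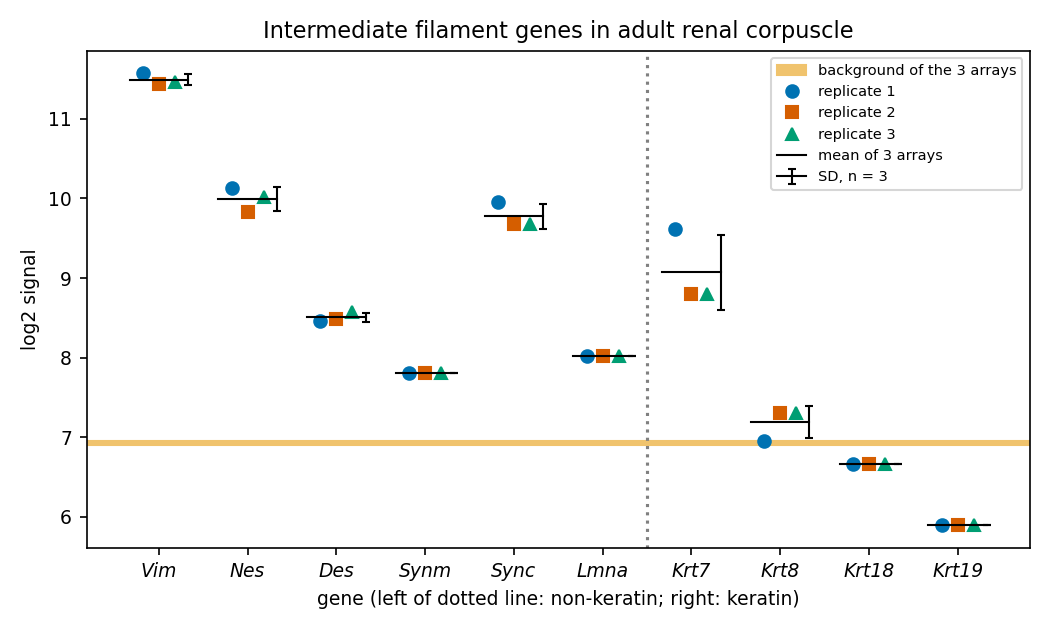
log2 signal (vertical axis) of the 10 intermediate filament genes (horizontal axis) on the 3 arrays; points are arrays, black lines are means, whiskers are SDs of n = 3, and the orange band spans background, 6.90 to 6.96. All 6 non-keratin genes and Krt7 lie above the band, Krt8 lies at its upper edge on replicate 1 at 6.96, and Krt18 and Krt19 lie below it; heights of different genes are not comparable as transcript levels.

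Vim encodes vimentin, the main filament protein of podocytes. Its signals were 11.57, 11.44 and 11.46 log2 on replicates 1, 2 and 3, or 11.49 ± 0.07 (SD, n = 3), and they stood 4.57 above background. The margin over background was 4.67, 4.48 and 4.54 on the arrays in turn, so they differed little, and 0 of the 1210 receptor probe sets reached the mean of Vim. On the linear scale the 3 arrays gave 3040, 2781 and 2822. Vim was the only member over a linear signal of 1000 on every array, a level passed by 7.59% of all genes.

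Nes encodes nestin, a large filament protein of neural progenitors that adult podocytes also make and that assembles together with vimentin. Its signals were 10.13, 9.82 and 10.02 log2, or 9.99 ± 0.16 (SD, n = 3), which is 3.07 above background. Replicate 2 was the lowest array, 0.31 below replicate 1. Linear signals were 1121, 906 and 1040, so Nes crossed 1000 on replicates 1 and 3 but not on replicate 2.

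Sync encodes syncoilin, a filament protein known from striated muscle, where it binds desmin and alpha-dystrobrevin. The study, on sorted podocytes rather than the present samples, named Sync among genes with strong podocyte expression. In the present samples the probe set of Sync gave 9.96, 9.68 and 9.68 log2, or 9.77 ± 0.16 (SD, n = 3), and stood 2.85 above background. Replicate 1 was higher by 0.28, and the other arrays held the same value. Vim, Nes and Sync were the 3 members over a linear signal of 500 on every array, a level that 17.2% of all genes passed. The study took 500, on raw signals of its podocyte arrays, as a very rough guide to what in situ hybridization can show. Whether that guide holds for the present values, whose summary method is not given, was not tested. The probe set of Sync is not free of doubt. The study's own annotation gives it a second gene, Rbbp4, a chromatin factor whose RefSeq gene model overlaps that of Sync, by 2284 bases in the GRCm38.p6 assembly. Rbbp4 has a separate probe set, with signals of 8.86, 8.86 and 8.92 log2, which did not share the higher value on replicate 1. How much of the Sync signal came from Rbbp4 transcripts was not tested.

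Des encodes desmin, the filament protein of muscle cells, which in the rodent glomerulus is known from mesangial cells. Its signals were 8.46, 8.49 and 8.57 log2, or 8.51 ± 0.06 (SD, n = 3), which is 1.58 above background. The arrays were close to each other, with replicate 1 lowest. In linear terms the signals were 353, 359 and 380, all between 150 and 500.

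Synm encodes synemin, which cannot form filaments alone and joins those of vimentin or desmin. It held 7.81 log2 on each of the 3 arrays, 0.89 above background and a linear signal of 225. Lmna, which encodes lamins A and C, held 8.02 log2 on each array, 1.09 above background and a linear signal of 259. One probe set measured both lamin products together. Over a linear signal of 150 on every array were 7 of the 10 members, namely all 6 non-keratin genes and Krt7, against 51.3% of all genes.

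Signals that are identical on several arrays are common in these data. Of the 10 members 4 (Synm, Lmna, Krt18 and Krt19) held 1 value on all 3 arrays, against 54.2% of all genes. Of the 8 detected members 2 did so, against 44.0% of detected genes. An SD of 0 is therefore not an error of 0. For the same reason no p-values of single genes are given; the test acted as a cut slightly above background, and near that cut a call has little weight.

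Krt7 encodes a type II keratin of simple epithelia and ducts. Its signals were 9.61, 8.79 and 8.81 log2, or 9.07 ± 0.47 (SD, n = 3), which is 2.15 above background. Replicate 1 stood apart, 0.82 above replicate 2 and 0.81 above replicate 3, or 1.77-fold and 1.75-fold, while replicates 2 and 3 differed by 0.01. Linear signals were 783, 444 and 447, so Krt7 passed 500 on replicate 1 only. A range between arrays above 0.75 log2 was seen in 0.801% of detected genes, and Krt7 was the only member among them. Without replicate 1 the signal of Krt7 was 1.86 above background, and on each of the 3 arrays it exceeded background by at least 1.84.

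Krt8 encodes the type II keratin that pairs with keratin 18 in simple epithelia. Its signals were 6.96, 7.31 and 7.31 log2, or 7.19 ± 0.20 (SD, n = 3). It was called detected at 0.26 above background, but on replicate 1 the margin was 0.06. Of the receptor probe sets that set background, 2.64% had a mean at or above that of Krt8, which lay below 150 in mean linear signal, at 146. Set against the 99th percentile of those probe sets, Krt8 lay at -0.37 log2. Its detection thus depends on where background is drawn.

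Krt18 and Krt19 encode type I keratins, the partners of keratins 8 and 7 in simple epithelia. Krt18 held 6.66 log2 on each array, 0.27 below background, and 8.84% of receptor probe sets reached it. Krt19 held 5.90 log2, 1.03 below background, and 30.9% of receptor probe sets reached it. For these probe sets transcripts were thus not distinguished from background, which does not show that the genes were silent. Krt8 and Krt18 are next to each other among protein-coding genes in RefSeq, and their signals lay on either side of background.

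The keratin family was then read as a whole. Of 44 other keratin genes measured, 8 (18.2%) were detected, against 58.9% of all genes. The 44 had a median of -0.56 log2 relative to background, and 0 passed a linear signal of 500 on every array. Krt80, a type II keratin gene that is the neighbour of Krt7 in RefSeq, had 8.83, 8.90 and 8.86 log2, or 1.94 above background. It did not share the higher value of Krt7 on replicate 1. Krt33b, known as a hair keratin gene, stood at 8.20 ± 0.07 (SD, n = 3), 1.28 above background, and Krt10, known from the upper epidermis, at 7.38 on every array, 0.45 above. The other 5, Krt12, Krt34, Krt35, Krt42 and Krt82, were at most 0.38 above background. Krt79 and Krt6a, which were not detected, lay 0.10 below it. Members included, 4 of 21 type II genes and 6 of 27 type I genes were detected. None of the 6 type I genes was a simple epithelial keratin, since Krt18, Krt19, Krt20 and Krt23 were not detected. Members of the family can resemble each other in sequence, and whether hair keratin probe sets read transcripts of other genes was not tested.

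Of 12 other filament genes outside the keratins, 3 were detected, against 58.9% of all genes. The 3 were Lmnb2, a B-type lamin gene at 7.53 log2 on every array, and the less studied Iffo1 and Iffo2, at 7.48 ± 0.05 (SD, n = 3) and 8.27. Lmnb1, the other B-type lamin gene, was 0.05 above background and not detected, and Nefh was 0.01 above it. The neurofilament genes Nefl and Nefm, and Ina, Gfap and the lens genes Bfsp1 and Bfsp2, lay from 0.22 to 1.74 below background, and Prph 0.05 below it. The neurofilament genes were thus not detected, whereas Nes, also known from the nervous system, was.

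**Figure D2:**
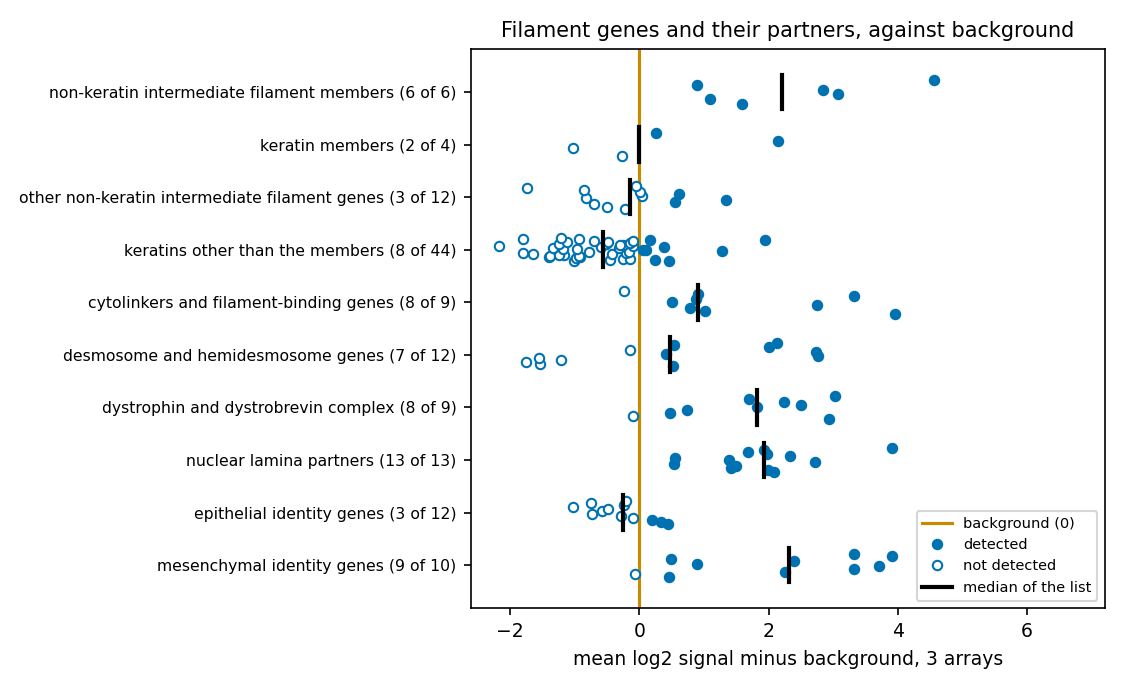
Mean log2 signal of 3 arrays minus background (horizontal axis) for each gene of 10 lists (rows, with the number detected of the number measured); detected genes are filled, undetected ones are open, and black bars are list medians. The 6 non-keratin members lie to the right of 0, whereas 36 of 44 other keratins and 9 of 12 epithelial identity genes are open points. Over all genes 58.9% were detected.

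Proteins that tie filaments to other structures were examined next. Of 9 cytolinker and filament-binding genes 8 were detected, against 58.9% of all genes. Cryab, a chaperone of desmin and vimentin filaments, stood at 10.88 ± 0.11 log2 (SD, n = 3), 3.96 above background. Macf1 and Dst, giant spectraplakins that join actin to microtubules and filaments, stood 3.31 and 2.75 above it. Plec, which encodes plectin, the general linker of vimentin and keratin filaments, held 7.83 on every array, 0.91 above background. Ppl, a plakin of stratified epithelia, was 0.23 below it, while Evpl and Eppk1 of the same list were 0.88 and 0.50 above it.

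Desmosomes anchor keratin filaments, and 7 of 12 desmosome and hemidesmosome genes were detected, or 58.3%, a share close to the 58.9% of all genes. Transmembrane desmosomal cadherins were not among them: Dsg2, Dsg3, Dsc2 and Dsc3 lay from 1.21 to 1.75 log2 below background. Of the plaque proteins, Jup (plakoglobin, which also serves adherens junctions) held 9.66 on each array, Pkp2 stood at 8.94 ± 0.08 (SD, n = 3) and Pkp4 at 9.06 ± 0.08, between 2.01 and 2.74 above background, while Pkp1 (plakophilin 1) was 0.15 below and not detected. Dsp, the desmoplakin that binds keratins, was 0.79 above. Itga6, an integrin subunit of hemidesmosomes that many cells also use with another partner, was 2.76 above, and Itgb4, its hemidesmosomal partner, 0.41 above.

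Genes of the dystrophin complex, to which syncoilin attaches in muscle, were detected in 8 of 9 cases, against 58.9% of all genes. Utrn, the widely used relative of dystrophin, had 9.94, 9.96 and 9.96 log2, 3.03 above background. Dag1 (dystroglycan) and the sarcoglycan gene Sgce were 2.94 and 2.50 above. Dtna, which encodes the alpha-dystrobrevin that binds syncoilin, was 0.48 above, and Dmd, dystrophin itself, was 0.10 below. Of 5 skeletal muscle markers 4 were detected, Ckm, Tnnt3, Acta1 and Myod1, at 0.78, 0.60, 0.23 and 0.14 above background. Of the 5, 0 passed a linear signal of 500 on every array, and Actn2 was 0.40 below background. The calls of Acta1 and Myod1, near background, have little weight.

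Partners of the nuclear lamina were detected in 13 of 13 cases, against 58.9% of all genes, with a median of 1.93 log2 above background. Zmpste24, the protease that matures lamin A, stood at 10.84 ± 0.01 log2 (SD, n = 3), 3.92 above background. Lemd3, an inner nuclear membrane protein that binds lamins, and Syne1, a nesprin that ties the nucleus to the cytoskeleton, were 2.71 and 2.34 above. Lmna itself was 1.09 above.

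Lists of cell identity genes were read in the same way, beside the 58.9% of all genes that were detected. Of 10 mesenchymal identity genes 9 were detected, among them Zeb1 at 10.84 and Zeb2 at 10.25 on every array, which encode repressors of E-cadherin, and S100a4 at 10.63 ± 0.10 log2 (SD, n = 3). Cdh2 was 0.07 below background. Of 12 epithelial identity genes 3 were detected, and they were close to background: Cdh1 (E-cadherin) 0.44 above it, Cdh16 0.33 and Cldn4 0.19. Cldn7, a claudin of tight junctions, and Ovol1, a transcription factor of epithelia, were 0.10 and 0.21 below it, and the other 7 were not detected. The median height was 2.32 for the mesenchymal list and -0.26 for the epithelial list, beside 0.37 for all genes, as a description of these probe sets.

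Markers of cells that could carry these filaments were read beside them. The counts here and below stand against 58.9% of all genes detected. Of the glomerular cells, 6 of 6 podocyte markers measured were detected, with Podxl, Foxc2 and Ptpro 5.40, 4.95 and 4.53 log2 above background. So were 7 of 7 endothelial markers, with Emcn, Kdr and Flt1 5.93, 4.79 and 4.12 above, and 5 of 5 mesangial markers, with Ptn, Itga8 and Agtr1a 5.71, 4.80 and 4.42 above. Of 5 smooth muscle markers 4 were detected, among them Myl9, Acta2 and Myh11 at 4.22, 1.67 and 1.39 above, and Cnn1 was 0.49 below. Markers of podocytes, endothelium and mesangium were thus clear of background, as were the members Vim, Nes, Sync and Krt7. Being clear of background does not tie a gene to a cell type.

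Parietal markers were detected in 5 of 5 cases, with Cd24a, which many cells express, 6.05 log2 above background, and Ncam1 and Cldn1 0.75 and 0.66 above. Pax8 and Pax2 were nearer to background, 0.44 and 0.26 above. Tubule markers were read too. Of 8 proximal tubule markers 7 were detected, among them Kap, Gatm and Aqp1 at 3.68, 2.77 and 1.95 above, and Cubn was 0.39 below. Of 6 loop and distal tubule markers 4 were, among them Calb1, Umod and Pvalb at 2.46, 2.32 and 1.52 above, and Slc12a1 and Cldn16 were 0.09 and 0.21 below. Of 8 collecting duct markers 6 were, among them Atp6v1g3, Aqp2 and Aqp3 at 0.99, 0.91 and 0.62 above, and Scnn1b and Scnn1g were 0.49 and 0.95 below. Fxyd4, Hsd11b2 and Slc4a1, also detected, were nearer to background, at 0.41, 0.31 and 0.21 above. The shares detected were 87.5% for proximal tubule, 66.7% for loop and distal tubule and 75.0% for collecting duct, against 58.9% of all genes. Calls near background have little weight as signs of a cell type.

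Of 5 urothelial markers 1 was detected, Upk2 at 0.90 log2 above background, and Upk1a and Trp63 were at background, at -0.0041 and -0.0047. Of 4 mesothelial markers 2 were, Aldh1a2 at 1.05 and Upk3b at 0.05 above, and Lrrn4 and Msln were 0.54 and 0.63 below. Of 5 leukocyte markers 4 were, among them Tyrobp, Lyz2 and Ptprc at 2.16, 1.91 and 1.62 above, and Adgre1 was 1.08 below. Leukocytes also make vimentin. What share of each filament signal came from which cell type was not tested.

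The arrays were compared with each other last. Of the 6 members whose signals differed between arrays, 4 (Vim, Nes, Sync and Krt7) were highest on replicate 1 and 2 (Des and Krt8) were lowest there. Among detected genes, replicate 1 was above both other arrays in 20.9% and below both in 10.7%. Those shares are over all detected genes, of which 44.0% held 1 value on all 3 arrays. The 6 members leave out such ties, so the counts and the shares are not on the same base. A range above 0.25 log2 was found for 4 members (Nes, Sync, Krt7 and Krt8) and for 9.54% of detected genes. The median SD of the members was 0.06 log2, against 0.0095 for detected genes. For the type II keratins, on replicate 1 Krt7 was higher by 0.82 and Krt8 lower by 0.35 than on replicate 2. Krt8 was near background, however, at 0.06, 0.35 and 0.39 above it on replicates 1, 2 and 3, so its difference has little weight.

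**Figure D3:**
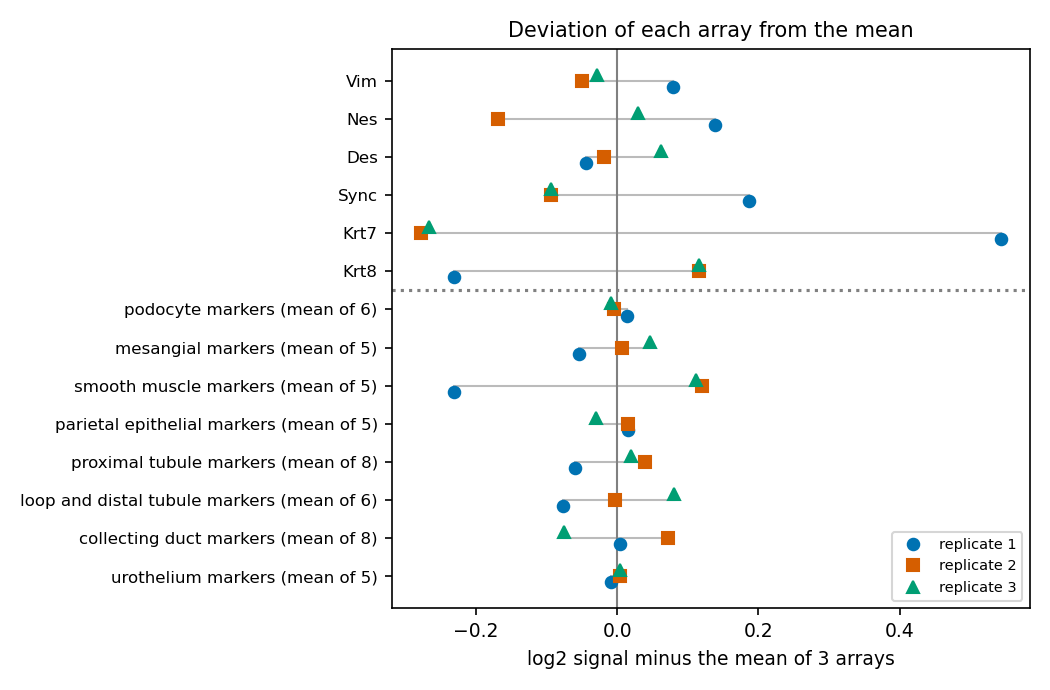
log2 signal on each array minus the mean of 3 arrays (horizontal axis) for the 6 intermediate filament genes whose arrays differ (rows above the dotted line) and for the mean over the markers of 8 cell types (rows below it). Krt7 on replicate 1 is the point farthest to the right, and smooth muscle markers on replicate 1 are low, at -0.23. Rows above the line are single genes and rows below it are averages, so their widths are not comparable. A single loop and distal tubule marker reached 0.54 above its mean on replicate 3.

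Marker lists gave these values beside the higher Krt7 of replicate 1. On that array podocyte markers deviated from the mean of 3 arrays by 0.01 log2 on average, parietal markers by 0.01, collecting duct markers by 0.0034, and urothelial markers by -0.0081. Collecting duct markers averaged 0.07 on replicate 2 and -0.07 on replicate 3. Among them Atp6v1g3 had 7.94, 8.41 and 7.40 log2 on replicates 1, 2 and 3. The summed linear signal of the 5 urothelial markers was 604 on replicate 1 and 614 on replicates 2 and 3. Tied values limit what these lists can show. Identical on all 3 arrays were 3 of 6 podocyte and 3 of 5 parietal markers. So were 3 of 8 collecting duct and 4 of 5 urothelial markers, and 4 of the urothelial markers were not detected. None of these lists had a member more than 0.1 above its mean on replicate 1. Of the 6 loop and distal tubule markers 3 did and 3 lay more than 0.1 below, Calb1 being highest on replicate 1 at 9.61 and Umod lowest at 8.77. Smooth muscle markers were lower on replicate 1, by 0.23 on average and by more than 0.1 in 3 of 5, with a linear signal of Acta2 of 255 there, against 512 and 442 on replicates 2 and 3. Des had its lowest signal on that array too, by 0.11 from its highest. Mesangial markers, whose cells are known for desmin, averaged 0.05 below their means on replicate 1, with a median deviation of 0. Of these 5 markers only Agtr1a, at 11.06, 11.44 and 11.52 log2, was more than 0.1 below its mean there. Endothelial markers, whose cells also make vimentin, averaged 0.07 above their means on replicate 1, but their median deviation there was 0.01 and only 2 of 7, Tek and Cdh5, were more than 0.1 above. The part of these cell types in the signals of Krt7, Krt8, Des, Vim, Nes and Sync was not tested.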

How the data were processed

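Total RNA of 3 renal corpuscle samples went through 1 round of amplification, then received a biotin label for hybridisation to Affymetrix arrays. The authors deposited log2 signals for 35557 probe sets; the submitters' notes name Affymetrix Expression Console, and no source used here gives the summary method behind this table. Array medians were 7.11, 7.11 and 7.09, and the values were used as they stood. The table holds log2 values only, so depth does not apply and the number of arrays limits precision. The platform annotation gives 1 symbol for 21789 probe sets, several for 1621, and 12147 are unnamed here. A gene took its 1-symbol probe set of highest mean. Detection was a one-sided limma 3.58.1 test (R 4.3.3; intercept, eBayes with trend) of signal minus background, adjusted p under 0.05, checked on simulated data. Alternatives were other background levels, quantile normalization, no trend, the mean of a gene's probe sets, a filter on low signals and leaving out each array. Linear signals are 2 to the power of log2 values. The labels do not say whether pools came from separate days, so the spread may be partly technical.

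Genes named are the 10 members, and of each other list the 3 detected and 2 undetected genes of highest signal; further genes were named after their values were seen, as were the type I and type II counts. The members and lists were chosen with earlier results of these data known. Without a value were 3 of 47 other keratins, 2 of 8 podocyte markers and at most 1 gene in each other list.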

Additional observations from a re-analysis of the deposited data

How the results depend on the processing

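No paired analysis was possible because there was only 1 group. The 6 non-keratin members and Krt7 stayed detected under all 12 alternatives, of which above background on every array with no test and receptor genes left out of the test were chosen after seeing the data. The keratin count of 2 became 1 with the 99th percentile of receptors and 1 with a fixed linear signal of 150 on every array, because Krt8 then lay at -0.37 and -0.039 log2, and became 4 with the median of receptors, a lower level that also gave 18024 detected genes, against 11734. Under the other 9 alternatives the count was 2. Without a replicate, Krt8 was from 0.20 to 0.37 above background and Krt7 from 1.86 to 2.30. The count of members over 500 was recomputed under 6 alternatives; it was 3 under 5 of them and 4 by mean signal, which added Krt7. The median SD of members was 0 to 0.0755 when a replicate was left out (0 without replicate 1, where it was 0.06 over 3 arrays) and 0.0674 under quantile normalization. Against the 99th percentile of receptors, Synm and Lmna stayed detected at only 0.25 and 0.46 log2 above it. Members near background, Krt8, Krt18 and Krt19, and to a lesser degree Synm and Lmna, are where the signal over background limits the calls.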
